A study of Hakea prostrata with 26 samples.

Results

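Mature leaves of Hakea prostrata from the field and from hydroponics were compared by RNA sequencing. The 6 libraries described were the 3 labelled wild leaf stage M and the 3 labelled mature leaf in hydroponics, out of 26 libraries in all, and they were chosen by these labels. The stage M leaves came from plants growing naturally at a field station in Western Australia. Of 5 plants harvested, the 3 leaf samples with the best RNA were sequenced, and the labels do not say what M stands for. The hydroponic leaves came from plants given 1, 10 or 50 µM phosphate (Pi), with a single library at each level and no replicate of any level. They were taken as 3 libraries of a group, so the spread in that group holds the Pi supply as well as the plants. No genotype and no other treatment is named for either group, and the age of the leaves is not given. Growing in the field or in hydroponics and the depth of the libraries went together. The field libraries held 2644907 to 4054778 estimated counts and the hydroponic ones 17130925 to 20283854, and the lowest hydroponic total was 4.22 times the highest field total. An effect of the setting and an effect of depth cannot be told apart from the labels alone. The main counts of field stage M against hydroponics are given at equal depth as well.

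Hakea prostrata is a woody plant of the Proteaceae family found on soils very poor in phosphorus. It forms cluster roots, dense groups of short rootlets that release organic acids and so free phosphate bound in the soil, and it keeps the amount of phosphorus in its leaves low. A mature leaf has finished expanding and works mainly in photosynthesis, for which a few highly abundant messenger RNAs usually provide a large part of the transcripts. The values were estimated counts per transcript of an assembly, with 51697 transcripts in 25047 genes, 11687 of which had several isoforms. Transcripts carry only assembly identifiers of the Trinity form, so no function can be given to any of them, and the tissue labels could not be checked against marker genes. Libraries of the 2 groups were compared by correlation, with no root library among them. Such values cannot show whether a tissue label is right. Over 25538 tested transcripts, log2 CPM (counts per fixed library size) correlated at r = 0.792 to 0.801 among the field libraries and at 0.757 to 0.85 among the hydroponic ones. Between the groups r was 0.515 to 0.661, below every value within a group. With all libraries thinned to the smallest total, r between the groups was 0.599 to 0.743 and within them 0.792 to 0.885.

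The counts of field leaves were gathered in very few transcripts, whereas those of hydroponic leaves were spread over many. The 10 most abundant transcripts of a library held 42.6, 43.9 and 31.3% of the counts in field replicates 1, 2 and 3. In hydroponics they held 10.1, 9.88 and 7.73% at 1, 10 and 50 µM Pi. All 3 field libraries thus lay above all 3 hydroponic ones, with means of 39.3% ± 6.95 (SD, n = 3) and 9.24% ± 1.32 (SD, n = 3). To reach 50% of the counts took 41, 35 and 161 transcripts in the field and 978, 1110 and 1324 in hydroponics. At equal totals the difference in the share of the 10 leading transcripts was 30.05 percentage points, against 30.03 as deposited. The exact two-sided permutation test over libraries gave p = 0.1 for each of these measures, which is the smallest p that 3 against 3 libraries allow. Field replicate 3 was the least concentrated of the field libraries in both. These are shares of counts and are not corrected for transcript length, which the files do not give. In bulk leaves, fewer cells of a type and less RNA per cell cannot be told apart.

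**Figure D1:**
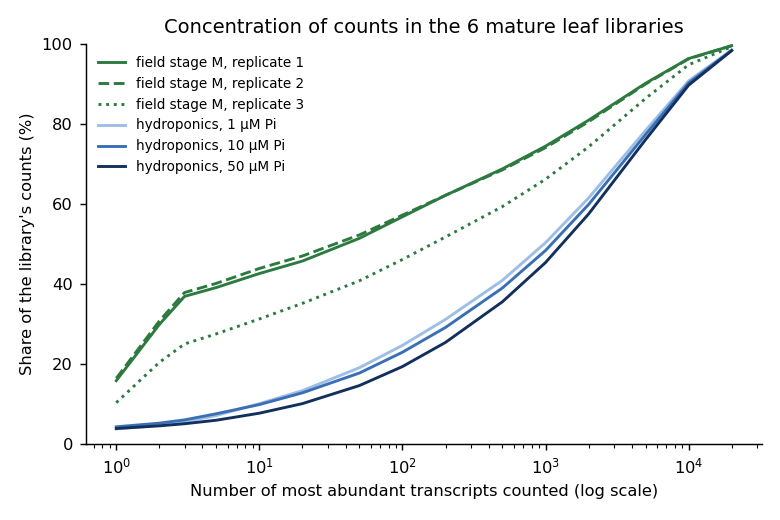
Cumulative share of a library's counts (%) held by its most abundant transcripts, against the number of transcripts counted (log scale), for the 3 field and 3 hydroponic libraries. At 100 transcripts the field libraries had reached 46.1 to 57.2% and the hydroponic ones 19.4 to 24.7%.

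A set of 3 transcripts made up most of the difference in the share of the 10 leading transcripts. TRINITY_DN307550_c0_g1_i1 took 15.9, 16.4 and 10.1% of the counts of the field libraries and 0.891, 0.815 and 0.344% in hydroponics. TRINITY_DN482036_c0_g1_i1 took 14, 14.3 and 10.4% in the field and 0.794, 0.743 and 0.285% in hydroponics. TRINITY_DN147260_c0_g1_i1 took 7.03, 7.11 and 4.60% in the field and 0.0883, 0.0776 and 0.0306% in hydroponics. For each of them every field library was above every hydroponic library, and within hydroponics the share was lowest at 50 µM Pi. Together they held 36.9, 37.9 and 25.0% of the field counts against 1.77, 1.64 and 0.66%. Each is the only isoform of its assembly gene. Their log2 fold changes, field over hydroponics, were 5.29 ± 0.58 (SE), 5.32 ± 0.57 and 7.49 ± 0.65. All 3 passed edgeR's quasi-likelihood test after Benjamini-Hochberg adjustment over all transcripts tested, with adjusted p of 0.00428, 0.00394 and 0.00258. What these transcripts encode is not annotated in the files. The library kit removes plant ribosomal RNA and keeps other total RNA, and the part of incomplete removal in their shares was not tested.

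The same transcripts became more abundant over the earlier wild leaf stages. The mean share of TRINITY_DN307550_c0_g1_i1 was 0.394, 0.781, 2.05 and 7.66% in stages 1, 2, 3 and 4 (n = 3 each) before 14.1% in stage M. For TRINITY_DN482036_c0_g1_i1 these shares were 0.424, 0.808, 1.92, 6.80 and 12.9%, and for TRINITY_DN147260_c0_g1_i1 they were 0.193, 0.380, 0.936, 3.46 and 6.25%. The mean in hydroponic mature leaf, 0.683, 0.608 and 0.0655% in the same order, thus lay between the means of stages 1 and 2 for the first pair and below stage 1 for the last. In white roots of hydroponic plants the shares were 0.00453, 0.00547 and 0.00151%.

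Without these 3 transcripts the field libraries were still more concentrated. Field minus hydroponics, the mean share of the 10 leading transcripts differed by 2.27 percentage points, against 30 with all transcripts. The mean number needed to reach 50% differed by -618, against -1058, so this measure changed less. The 10 most abundant of the remaining transcripts held 11, 11.8 and 10.3% of the remaining counts in the field and 9.43, 9.18 and 7.70% in hydroponics. It took 476, 524 and 694 transcripts to reach 50% in the field and 1035, 1166 and 1347 in hydroponics. The groups did not overlap in either measure.

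Fewer transcripts were detected in the field leaves. With at least 1 count, 28548, 28063 and 29020 transcripts were seen in the field libraries and 33566, 33088 and 33127 in the hydroponic ones. At equal totals the numbers were 26934, 27174 and 29020 against 31004, 30924 and 31042, so the field libraries lay below the hydroponic ones with depth removed as well (exact permutation p = 0.1, n = 3 and 3, the smallest possible). Field minus hydroponics, the mean difference was -4717 as deposited and -3281 at equal totals. Asking for at least 5 counts in place of 1, without thinning, it was -12353. The part of the concentrated counts in this difference was not tested.

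Of the 10 most abundant transcripts of each group, by mean share, 3 were common to both. TRINITY_DN850_c0_g1_i13 led all hydroponic libraries, with 3.79, 4.33 and 3.89% of the counts, against 1.27, 1.19 and 1.20% in the field. Scaled by TMM, which sets libraries to a common level over most transcripts, it stood at 28729, 31816 and 28999 CPM in hydroponics and 19242, 17572 and 13752 in the field. The log2 fold change was -0.82 ± 0.26 (SE) and did not pass (edgeR adjusted p = 0.0705), although the groups did not overlap. It passed under 5 of 17 alternatives, and the adjusted p ran from 0.000588 to 0.243. Cluster roots had 0 counts of it and white roots a mean share of 7.03e-06%, so that among these libraries it was nearly confined to leaves.

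The next hydroponic leaders differed little at this scaling. TRINITY_DN4294_c0_g2_i3 had 5861, 6704 and 5016 CPM in hydroponics and 5801, 6022 and 5173 CPM in the field (log2 fold change -0.05 ± 0.23, edgeR adjusted p = 0.907). TRINITY_DN3152_c0_g1_i2 had 6758, 5841 and 3247 CPM in hydroponics and 3811, 3825 and 3297 in the field (log2 fold change -0.54 ± 0.32, edgeR adjusted p = 0.276). In both the groups overlapped, and neither value shows that the settings were alike. Without the 50 µM Pi library the latter passed, at -0.76 with an edgeR adjusted p of 0.0422. Scaled by library totals alone, both were lower in the field and passed, at -0.93 (edgeR adjusted p = 0.0189) and -1.42 (0.0142).

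Among the 100 most abundant transcripts of each group, by mean share, 56 were common to both. Of the 100 leading field transcripts 54 passed as higher in the field and 0 as lower. Of the 100 leading hydroponic transcripts 11 were higher in the field and 19 were lower. Since the lists were picked by level in the same libraries, their directions are partly fixed by the choice.

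Over all transcripts, expression differed widely between field and hydroponic leaves. Of 25538 transcripts tested, 4135 passed (16.2%), 1814 of them higher in the field (7.1% of those tested) and 2321 lower (9.09%). edgeR's quasi-likelihood test on TMM-scaled counts was used, with a Benjamini-Hochberg adjusted p under 0.05. The remaining 21403 did not pass, and 8788 had an unadjusted p under 0.05. The median log2 fold change was -0.22 over all transcripts tested, 1.95 over those higher in the field and -2.70 over those lower, or -2.60 with transcripts absent from a group set to a lower bound. With such bounds, 874 of the higher and 1536 of the lower transcripts differed at least 4-fold, and 334 and 545 at least 16-fold. No transcript with a difference under 1.54-fold passed. No overlap between the 2 groups was found in 11946 transcripts (46.8%), 4868 with the field above and 7078 below, and all 4135 that passed were among them. Thinned to one total, 4521 of 17388 transcripts passed, 2105 higher in the field and 2416 lower.

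**Figure D2:**
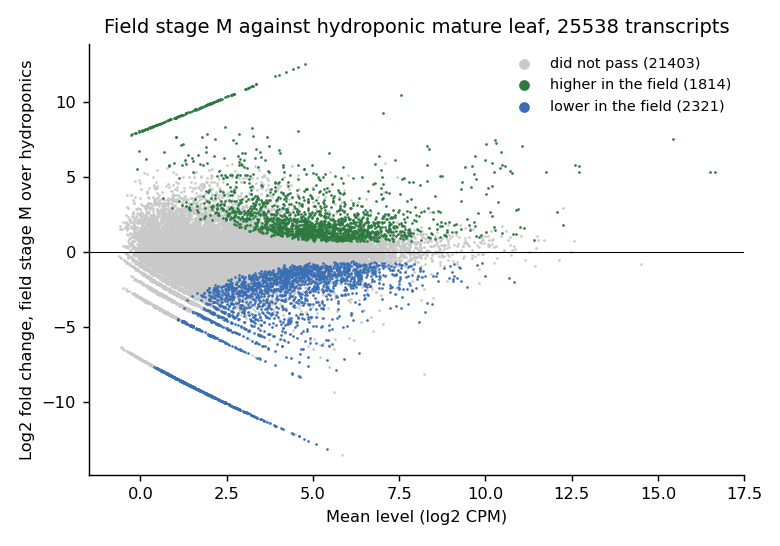
Log2 fold change of field stage M over hydroponic mature leaf against mean level (log2 CPM) for 25538 tested transcripts, with those that passed at an adjusted p under 0.05 in green (1814 higher in the field) and blue (2321 lower). The narrow diagonal lines are transcripts with 0 or a few counts in a whole group, whose fitted fold change depends on the prior count, and the 3 points at the far right are the leading field transcripts.

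How many transcripts passed, and which direction was the more common, changed with the libraries kept, the scaling and the model. Without field replicate 1, 2 or 3 the number was 1123 of 31743 tested, 774 of 31559 and 1287 of 31462. Without the hydroponic library at 10 µM Pi it was 1154 of 21564. Of these smaller sets, 90.0 to 94.9% had passed in the same direction with all 6 libraries. Without the library at 1 or 50 µM Pi the number was 4106 of 21929 and 3550 of 21706. The filter thus kept different numbers of transcripts, against 25538 with all 6 libraries, and the part of this in the counts was not tested. Higher in the field were 43.9% of the transcripts that passed with all 6, 59.4% without the library at 10 µM Pi and 55.6% without that at 50 µM Pi. Scaled by library totals alone, 8466 passed, and 750 of these (8.86%) were higher in the field. That scaling moved the median log2 fold change of all transcripts from -0.22 to -1.09, and in field totals the 3 leading transcripts alone stood for 25.0 to 37.9%. With limma-voom 1556 passed, 1247 higher and 309 lower (80.1% higher in the field). With log10 Pi as a term 5898 passed, 3090 higher and 2808 lower (52.4%). The directions given below are relative to the TMM level, and DESeq2's size factors gave 1945 higher and 2191 lower in the same test.

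The split between higher and lower changed with abundance. Among the 4805 transcripts with a mean log2 CPM of 5 or more, 863 were higher and 586 lower in the field. Between 2 and 5 there were 804 and 1336 of 12462, and under 2 there were 147 and 399 of 8271. Abundant transcripts therefore passed more often as higher in the field, and scarce ones more often as lower. Thinned to one total, 1070 and 648 of 4797 abundant transcripts passed, and 1021 and 1538 of 11756 in the middle class. Under 2 there were 14 and 230 of 835. At that depth the filter kept few of the scarce class, so its split there does not speak for the class. With library totals alone the lower ones were the more numerous in every class, with 300 and 2046 among the abundant. With log10 Pi as a further term, the scarce class turned to 338 higher and 297 lower.

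Counts summed over the isoforms of a gene were less variable and gave more calls. Of 14820 genes, 5124 passed (34.6%), with 2326 higher in the field (15.7%) and 2798 lower (18.9%). The biological coefficient of variation was 0.373 for genes and 0.634 for transcripts. The median log2 fold change was 1.36 over genes higher in the field and -2.02 over those lower (-1.95 with bounds), against -0.14 over all. At least 4-fold differences, with bounds, were found for 585 of the higher and 1361 of the lower genes. Leaving out field replicate 1, 2 or 3 left 2960 of 17144 genes tested, 2648 of 16998 and 3372 of 17004. Leaving out the library at 10 µM Pi left 3159 of 13147. Thinned to one total, 4431 of 11765 genes passed, 2102 higher and 2329 lower. With library totals alone 8445 passed, 6.56% of them higher in the field.

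For genes with several isoforms, a transcript and its gene mostly agreed. Of 3068 such transcripts that passed, 2264 belonged to genes that passed in the same direction, 90 to genes that passed in the opposite one and 714 to genes that did not pass. Of 3581 genes with any transcript that passed, 117 had isoforms passing in both directions, and in 51 of these the sum did not pass. Transcripts without other isoforms passed in 1067 of 5609 cases (19.0%) and those with other isoforms in 3068 of 19929 (15.4%). Isoforms share reads, so their separate values are less certain than the sum.

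Among transcripts with a mean log2 CPM of at least 2 whose gene passed likewise, the largest fitted changes were of isoforms with 0 counts in the mature leaves of one group. Fitted changes of such isoforms depend on the prior count, and lower bounds are given in their place. TRINITY_DN12124_c0_g1_i10 stood at 55.5, 24.9 and 63.2 CPM in the field and had 0 counts in each hydroponic leaf library, at least 1188-fold higher in the field against 3 counts over the hydroponic group (edgeR adjusted p = 0.00342). It was not absent from hydroponic plants, because white roots had 8.66 ± 0.753 CPM (SD, n = 3) on the scale of all 26 libraries. Wild leaf stages 1 and 2 had 7.90 ± 2.98 and 12.7 ± 4.18 on the same scale. Its gene was higher in the field by only 2.06 on the log2 scale (edgeR adjusted p = 0.00584), so another isoform carried the gene in hydroponics.

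TRINITY_DN9280_c0_g1_i12 was at 46.2, 49.7 and 33.8 CPM in the field and at 0 in the 3 hydroponic leaf libraries, at least 1063-fold higher in the field (edgeR adjusted p = 0.00196). It had 0 counts in all 11 hydroponic libraries, roots included. On the scale of all 26 libraries its mean was 4.2, 8.33, 15.7 and 36.0 CPM in wild stages 1 to 4 and 55.6 in stage M. The gene as a sum was higher in the field by 3.08 on the log2 scale (edgeR adjusted p = 0.0031).

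In the other direction, TRINITY_DN3683_c1_g1_i7 had 0 counts in each field stage M library and 32.2, 21.1 and 35.6 CPM in hydroponics, at least 71.9-fold lower in the field (edgeR adjusted p = 0.00457). Younger wild leaves did contain it, with 27.9 ± 14.1 CPM in stage 1 and 0.287 ± 0.496 in stage 4 (SD, n = 3, scale of all 26 libraries). TRINITY_DN167_c0_g1_i15 also had 0 counts in stage M and had 14.3, 25.0 and 46.2 CPM at 1, 10 and 50 µM Pi, at least 67.4-fold lower in the field (edgeR adjusted p = 0.011). As sums over isoforms their genes differed far less, with log2 fold changes of -0.89 for TRINITY_DN3683_c1_g1 and -0.84 for TRINITY_DN167_c0_g1 (edgeR adjusted p = 0.0209 and 0.0211). By limma-voom neither isoform passed, with adjusted p of 0.0578 and 0.196. Thinned to one total, all 4 isoforms passed in edgeR, with adjusted p of 0.00127 to 0.00719.

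Whole genes with all isoforms summed showed the same kind of contrast. TRINITY_DN21253_c0_g1, with 4 isoforms, had 2448, 2406 and 1535 CPM in the field and 11.6, 18.6 and 14.3 in hydroponics, a log2 fold change of 7.17 ± 0.38 (edgeR adjusted p = 4.12e-05). Its level was already 382 ± 73.1 CPM in wild stage 1 and 1857 ± 563 in stage 4, while white roots had 122 ± 36.5 (SD, n = 3, scale of all 26 libraries). Of all the groups, hydroponic mature leaf had the lowest mean, 22.6 ± 5.17 on that scale. TRINITY_DN38174_c0_g1 had 20, 5.56 and 7.22 CPM in stage M and 0 counts in hydroponic leaves, at least 296-fold higher in the field (edgeR adjusted p = 0.00108). Outside stage M it was seen only in stage 4, at 1.43 ± 2.48 CPM, and it rested on 52, 12 and 16 counts. No value at equal totals was obtained for it, since it was not among the genes tested there.

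TRINITY_DN10544_c0_g1 was seen in leaves and roots of hydroponic plants and was at or near 0 in wild leaves, and the series has no field roots. Stage M libraries had 0 counts and hydroponic leaves 13.4, 15.6 and 26.1 CPM, at least 42.3-fold lower in the field (edgeR adjusted p = 0.000959). Means in wild stages 1 to 4 were at most 0.0928 CPM, whereas cluster roots in hydroponics had 17.6 to 34.1 and white roots 0.21 to 30.3. TRINITY_DN23309_c0_g1 had 0 counts in stage M and 5.61, 4.48 and 33.5 CPM in hydroponics, at least 33.3-fold lower in the field (edgeR adjusted p = 0.0281). Most of its counts came from the library at 50 µM Pi, with 842 against 156 and 110. It did not pass without field replicate 1, 2 or 3 (edgeR adjusted p = 0.0725, 0.0655 and 0.059), without a filter on low counts (0.074) or by limma-voom (0.103).

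**Figure D3:**
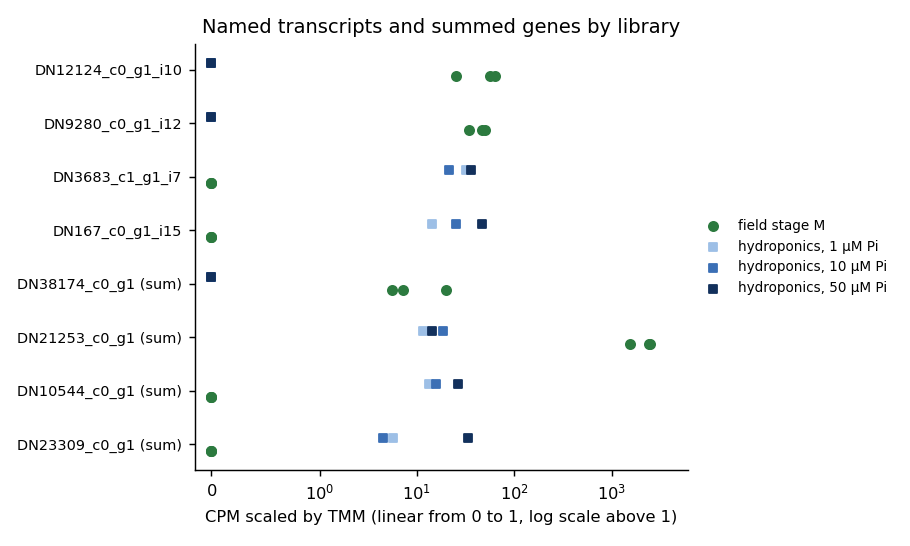
CPM scaled by TMM over the 6 libraries (linear from 0 to 1, log scale above) of the 4 named transcripts and 4 named summed genes, with a point for each library. The groups do not overlap in any of the 8, and in 7 of them all 3 libraries of a setting are at 0.

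Isoform usage, the share of each isoform in its gene, differed in 455 of 6171 genes tested (7.37%), by edgeR's diffSpliceDGE with Simes' method per gene and Benjamini-Hochberg adjustment. Of these, 230 also passed as a sum and 225 did not. The largest change of an isoform's share had a median of 27.2 percentage points and was over 50 points in 68 genes. In 136 the leading isoform of the field was not that of hydroponics. Without field replicate 1, 2 or 3 the number was 229 of 7633 genes tested, 230 of 7596 and 265 of 7592. Thinned to one total it was 512 of 3886.

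The leading isoform differed in TRINITY_DN6521_c0_g1, whose isoform i2 made up 100, 93.1 and 98% of the gene in the field and 12.7, 0 and 0.239% in hydroponics (edgeR adjusted p for usage = 0.00951). The gene's sum did not pass (log2 fold change 2.03, edgeR adjusted p = 0.116), with 73, 72 and 49 counts in the field and 63, 37 and 419 in hydroponics. The call was lost without field replicate 1, 2 or 3, at adjusted p of 0.0579, 0.062 and 0.0658 in edgeR. In TRINITY_DN3340_c0_g2 the field had isoform i1 alone and hydroponics isoform i2 alone, in every library. It rested on 11, 5 and 4 counts in the field and 32, 43 and 23 in hydroponics (edgeR adjusted p for usage = 0.011), and the call was lost without field replicate 2 or 3 (0.0854 and 0.0696). Of 10 alternatives, only 4 gave a usage value for this gene and 7 for TRINITY_DN6521_c0_g1. No value at equal totals was obtained for either, since neither was among the genes tested there.

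Few of the 51697 transcripts were at 0 throughout 1 growth setting and at 1 CPM or more in every mature leaf library of the other. How many met the 1 CPM condition alone was not counted, so no share of those is given. With 0 counts in all 15 wild leaf libraries and at least 1 CPM in every hydroponic leaf library there were 48 transcripts, with a median level of 4.90 CPM and a highest of 76.5. CPM in this count is per library total, without TMM. Of these, 16 had no other isoform, and 10 also reached 1 CPM in every white root library. Conversely, 20 transcripts had 0 counts in all 11 hydroponic libraries and at least 1 CPM in every stage M library. Only 2 of these had no other isoform. The hydroponic libraries include roots and the wild ones are leaves only, so the 2 counts are not alike. The highest of them was TRINITY_DN9280_c0_g1_i12, at 31.2 CPM per library total and 43.2 CPM scaled by TMM. With at least 1 CPM in every hydroponic leaf library, 700 transcripts were at 0 in the 3 stage M libraries. Of these, 652 had at least 1 count somewhere in wild stages 1 to 4. That is a lenient bar, and the libraries of stages 1 to 3 were deeper than those of stage M. In the reverse case, 132 transcripts with at least 1 CPM in every stage M library were at 0 in the 3 hydroponic leaf libraries. The parts of stage, setting and depth in these counts were not tested. A count of 0 over the 3 stage M libraries allows a level of up to 0.414 CPM scaled by TMM, and over the 3 hydroponic leaf libraries up to 0.0408 CPM, so absence was less firmly shown in the field. These limits cover counting error only.

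Across the wild leaf series, the hydroponic mature leaf was nearest to stage M and farthest from stage 1. In a fit of the 18 leaf libraries with 32611 transcripts tested, 13450 differed between wild stage 1 and hydroponic mature leaf (41.2%). The numbers were 12376 for stage 2 (38%), 11058 for stage 3 (33.9%), 9667 for stage 4 (29.6%) and 8998 for stage M (27.6%). These 5 comparisons share the hydroponic libraries, and a difference between their counts was not tested. Higher in the wild leaf were 7265 transcripts in stage 1 and 3616 in stage M, and lower were 6185 and 5382. Thinned to one total, the 5 numbers from stage 1 to M were 10969, 9964, 8671, 7482 and 7018. The mean r of log2 CPM with the hydroponic libraries was 0.549, 0.6, 0.65, 0.662 and 0.709 from stage 1 to M. With library totals alone the fewest differed in stage 4, while under the other 9 alternatives the number fell at every step.

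**Figure D4:**
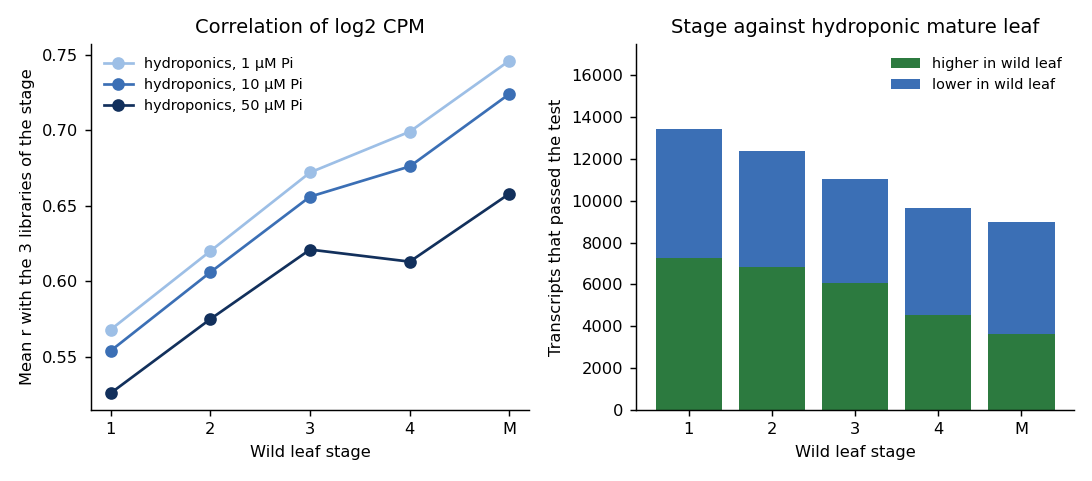
Left, mean correlation r of log2 CPM between each hydroponic mature leaf library and the 3 libraries of each wild leaf stage, with stages on the horizontal axis. Right, the number of transcripts that passed between each stage and hydroponic mature leaf, split by direction, falling from 13450 in stage 1 to 8998 in stage M.

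Of the hydroponic leaves, that at 1 µM Pi was the most like the field leaves and that at 50 µM Pi the least. Correlations with the 3 stage M libraries were 0.652 to 0.661 at 1 µM Pi, 0.609 to 0.621 at 10 µM and 0.515 to 0.529 at 50 µM, ranges that do not overlap. Thinned to one total they were 0.735 to 0.743, 0.697 to 0.707 and 0.599 to 0.612. Against the stage M mean, 2114 transcripts were at least 4-fold higher in the field and 4667 lower at 1 µM Pi. The numbers were 2366 and 5047 at 10 µM and 3357 and 5737 at 50 µM. The median absolute difference was 1.01, 1.14 and 1.38 on the log2 scale. With a single library at each level, a difference between Pi levels and one between plants cannot be told apart.

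Of the 3 hydroponic libraries, the one at 1 µM Pi had the level nearest to the stage M mean for 11394 of 25538 transcripts (44.6%), that at 10 µM for 28.5% and that at 50 µM for 26.9%. Among transcripts higher in the field these shares were 51, 22 and 27%, and among those lower 59.8, 19 and 21.2%. Both sets were called with these same 3 libraries, so their shares are not independent of that choice. Libraries at neighbouring Pi levels were also the more alike, with r = 0.85 between 1 and 10 µM, 0.811 between 10 and 50 µM and 0.757 between 1 and 50 µM.

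Spread within a group was larger in hydroponics, where the libraries differ in Pi. Over 7852 transcripts with at least 50 counts on average at one total, the median SD of log2 CPM was 0.262 among the field libraries and 0.371 among the hydroponic ones. The SD was larger in hydroponics for 4914 transcripts and in the field for 2938. The biological coefficient of variation, fitted for each group alone, was 0.269 in the field and 0.417 in hydroponics.

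Of the transcripts higher in field stage M than in hydroponics, 56.9% rose during leaf growth in the field, and of those lower 44.9% fell. The series of wild stages 1 to 4 has 12 libraries that took no part in the contrast, though its leaves came from the same harvested plants as stage M. Of 23366 transcripts tested in both fits, 5091 rose from stage 1 to 4 (21.8%) and 5235 fell (22.4%), by edgeR's quasi-likelihood test. The stage 1 to 4 fit was not run at equal depth. Stage 1 libraries held 4848278 to 6178804 counts and stage 4 libraries 1517382 to 3004146, and the part of depth was not tested. Among 1764 of the higher set tested in both fits, 1004 rose (56.9%) and 120 fell (6.8%), with a median log2 fold change of 1.17, and 640 did not pass. Among 2081 of the lower set, 251 rose (12.1%) and 934 fell (44.9%), with a median of -0.92, and 896 did not pass. These shares are set beside those of all transcripts, and the difference was not tested. Levels were not matched. In stage 1 the median log2 CPM was 4.47 over the higher set, 4.16 over the lower set and 3.34 over all. The part of level in these shares was not tested. Summed genes gave shares of the same order. Of 14055 tested in both, 29% rose and 30.1% fell, against 62.6 and 7.14% of the genes higher in the field and 13.3 and 52.8% of those lower.

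Outside the contrast, the median level rose from stage to stage over the transcripts higher in the field. Over those lower in the field it dropped only at stage 4, where the median of all tested transcripts dropped as well. Over the transcripts higher in the field, the median log2 CPM was 4.47, 4.74, 5.04 and 5.63 in wild stages 1, 2, 3 and 4. For all tested transcripts it was 3.34, 3.40, 3.43 and 2.95. Over those lower in the field it was 4.16, 4.18 and 4.24 in stages 1 to 3 and 2.87 in stage 4. The latter thus lay above the median of all transcripts in stages 1 to 3 and close to it in stage 4, where 82.2% of them still reached 1 CPM. Stage 4 libraries were also shallow, at 1517382 to 3004146 counts, and the part of depth in this step was not tested.

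Roots of hydroponic plants, which share the setting but not the organ, stood differently for the 2 sets. White roots exceeded the mean of wild stages 1 to 4 in 25.9% of the transcripts higher in the field, in 63% of those lower and in 52.2% of all. Median log2 CPM in white roots was 3.55 over the transcripts higher in the field, 4.22 over those lower and 3.19 over all. In cluster roots the medians were 3.55, 4.05 and 3.12. The root libraries were not tested against the leaves here.

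**Figure D5:**
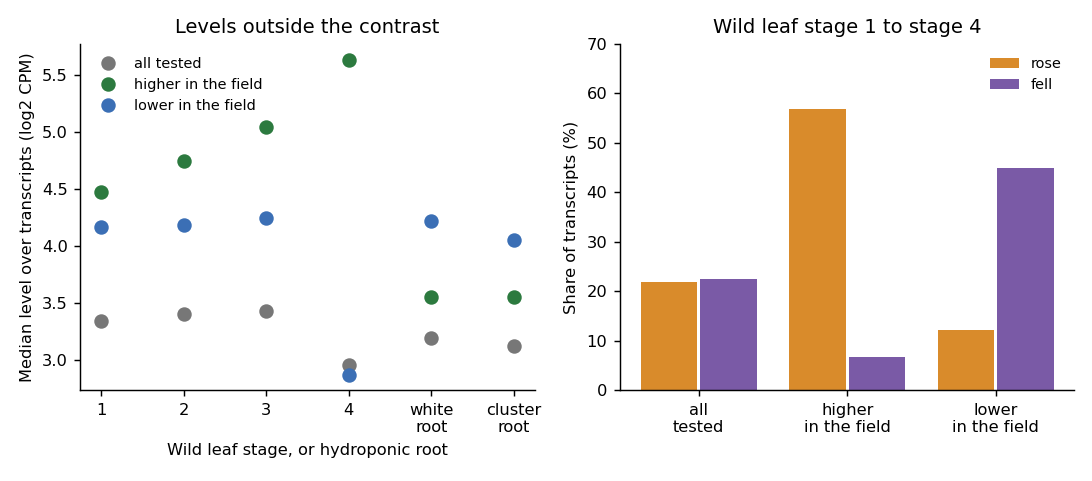
Left, median level (log2 CPM) in wild leaf stages 1 to 4 and in hydroponic roots of all tested transcripts, of those higher and of those lower in field stage M than in hydroponic leaf. Right, the share of each set (%) that rose or fell from wild stage 1 to stage 4, where 56.9% of the set higher in the field rose and 44.9% of the set lower in the field fell.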

How the data were processed

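Per the labels' protocols, ribosomal RNA was depleted from total RNA and stranded libraries were made. The authors deposited estimated counts for each transcript of an assembly. DESeq2 1.30.1, Trim Galore 0.6.6 and kallisto, whose version is missing, appear in the submitters' processing notes, and their roles are not stated there. Assembly, annotation and strand setting: not given in the sources used here. Members and lists were chosen with earlier results of these data known.

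Estimated counts were rounded. Transcripts were kept with edgeR's filterByExpr, at a minimum count of 10 and a total of 15. They were scaled by TMM and tested with the robust quasi-likelihood test (edgeR 4.0.16, limma 3.58.1, R 4.3.3) on the 6 libraries, with an adjusted p under 0.05 as passing. SE was taken as the size of the log2 fold change divided by the square root of the F statistic. Thinning used a fixed seed. Bounds and limits for a group at 0 use 3 counts over the group and effective library sizes. Absent transcripts were found with at least 1 CPM, per library total, asked of the other setting. The procedure was tested on simulated data.

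Transcripts were named by the largest fitted change, 2 per direction, provided that they passed, had ranges apart and a mean level of log2 CPM 2 or more, and that the gene passed likewise. Summed genes were named by the same rule among genes with several isoforms. For usage, the genes named have the largest share change among those whose sum did not pass. The 3 most abundant transcripts of each group were added.

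edgeR's p-values set the difference between groups against a spread between libraries that was fitted over both groups together. In hydroponics the libraries differ in Pi. In the wild series, the 18 pairs of libraries with the same replicate number had correlated deviations from their stage means (r = 0.141 to 0.389). The 36 other pairs had r of -0.263 to -0.0358, and the ranges together met the bar for paired numbers. Deviations sum to 0 within a stage, so the negative values are not separate evidence of pairing. The stage 1 to 4 values in the text come from the fit without that block, and the fit with it is an alternative. Field and hydroponic libraries share no numbering from the labels. Alternatives were each library left out, 2 other filters, size factors from DESeq2, TMM factors computed without the 20 leading transcripts, DESeq2 1.42.0, a test against a 1.5-fold change, limma-voom, all 18 leaf libraries, a log10 Pi term, and thinning. Scaling by library totals and the left-out libraries of the 18-library fit were chosen after seeing the data.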

Additional observations from a re-analysis of the deposited data

How the results depend on the processing

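The number of transcripts that passed between field and hydroponic mature leaf was 4135, and 774 to 4106 with a library left out. It was 7351 with DESeq2, 2262 against a 1.5-fold change, 1556 with limma-voom (80.1% of them higher in the field), 8998 in the fit of all 18 leaf libraries and 8466 with library totals only. For summed genes it was 5124, and 2648 to 5365 with a library left out, 2948 against a 1.5-fold change, 3383 with limma-voom (57.9% higher in the field) and 8445 with library totals only. Isoform usage gave 455 genes, 229 to 607 with a library left out and 1199 in the fit of 18 libraries. Transcripts tested numbered 25538 with all 6 libraries, 31462 to 31743 with a field library left out and 21564 to 21929 with a hydroponic one. The causes of these shifts were not tested.

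The difference in detected transcripts was -3281 at equal totals and -12353 with at least 5 counts. Without the 3 leading field transcripts, the 10 most abundant held 2.27 points more in the field, and the difference in the number of transcripts that make up 50% of the counts was -618. At 5 CPM, 15 transcripts were absent from wild leaves and 5 from hydroponics. TRINITY_DN4294_c0_g2_i3 had log2 fold changes of -0.12 to 0.076 with a library left out, above 0 without field replicate 3 (0.03) and without the library at 10 µM Pi, and 0.0015 under the stricter filter, against -0.05. The share of transcripts higher in the field that rose from stage 1 to 4 was 41.1 to 62.8% over 27 alternatives, and that of transcripts lower in the field that fell was 36.8 to 48.5%.

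With the replicate number as a block (replicate block), 13432 transcripts differed between wild stages 1 and 4, against 12440. No paired analysis was possible for field against hydroponics because the labels give hydroponic leaves no replicate numbers. Depth in the field libraries limits statements on scarce transcripts.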
